A study of Mus musculus with 6 samples.

Results

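The genes described here build and fuel the contractile apparatus of skeletal muscle, together with the membrane system that releases and recaptures calcium in a muscle fibre. They were a list of 36 gene names chosen by function, and a gene was taken when its name stood in the deposited tables. Of the 36 names, 28 were found among the 48733 named genes, and 8 (*Myh1*, *Myh2*, *Myh4*, *Mylpf*, *Tnni2*, *Neb*, *Ttn* and *Eno3*) were carried by no named feature. The study sequenced RNA in 6 libraries from the Collaborative Cross inbred strain CC016/GeniUnc, and its methods give 3 mice, which the labels do not tie to replicate numbers. For the 3 labelled bone, the source was cortical femur cleared of soft tissue and, by centrifugation, of marrow. For the 3 labelled osteoblasts, it was stromal cells grown out of the bone marrow and differentiated with ascorbic acid, beta-glycerophosphate and dexamethasone. No genotype other than the strain, and no age or treatment of the mice, was given.

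A skeletal muscle fibre is packed with sarcomeres, in which myosin thick filaments pull on actin thin filaments. Calcium released from the sarcoplasmic reticulum binds troponin on the thin filament and permits contraction, and a calcium pump then returns it. Fast and slow fibres use different genes for myosin, its light chains and the troponin subunits. These genes are commonly used to mark muscle fibres, and neither cortical bone nor osteoblasts form sarcomeres.

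Expression was read as FPKM, fragments scaled to transcript length and to the aligned fragments of the library, so levels of different genes can be compared. The libraries held 2.03 to 3.39 Gb of aligned sequence, as implied by the ratio of coverage to FPKM, at which 3 read pairs would give a 1 kb transcript an FPKM between 0.133 and 0.221. This limit covers counting error only. Features with no name took 71.5% of the FPKM in bone replicate 2 and 65.0% in osteoblasts replicate 1, against 27.4 to 30.7% elsewhere. The hemoglobin gene *Hbb-bt* was above 1000 FPKM in bone replicate 3 (34838), osteoblasts replicate 2 (34268) and osteoblasts replicate 3 (48650). It stood at 7.05 and 3.58 in the other bone libraries and at 3.43 in osteoblasts replicate 1. Levels of blood genes thus went against the labels in some libraries. Values are given here by library, with the deposited label, and no library was moved or pooled.

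*Acta1*, which encodes the alpha-actin of the skeletal thin filament, was the most abundant of the 28 genes. It measured 558 FPKM in bone replicate 3, 246 in osteoblasts replicate 3 and 109 in osteoblasts replicate 2. In bone replicates 1 and 2 it measured 1.04 and 0.451, and in osteoblasts replicate 1 it measured 0.0324. The values thus fell into 3 high and 3 low, with bone on both sides and osteoblasts on both sides. Among all named genes in its library, *Acta1* ranked 99th in bone replicate 3, 204th in osteoblasts replicate 3 and 433rd in osteoblasts replicate 2. It is listed on the minus strand at chr8:123891769-123894751 in GRCm38, inside a feature named *Usp10* on the other strand.

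The other abundant genes had the same 3 high libraries. *Atp2a1*, the calcium pump of fast fibres, measured 265, 138 and 54.7 FPKM in bone replicate 3 and osteoblasts replicates 3 and 2, and 0.0546, 0.0297 and 0.0536 in bone replicates 1 and 2 and osteoblasts replicate 1. *Tnnt3*, troponin T of fast fibres, measured 213, 134 and 66.8 in the same high libraries and was listed at 0 in the other 3. *Ckm*, the creatine kinase that regenerates ATP in muscle, measured 173, 80.7 and 45.1, against 0.0440 in bone replicate 1 and a listed 0 in bone replicate 2 and osteoblasts replicate 1. In each of these genes the order was bone replicate 3, osteoblasts replicate 3, osteoblasts replicate 2, with no overlap with the remaining libraries.

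**Figure D1:**
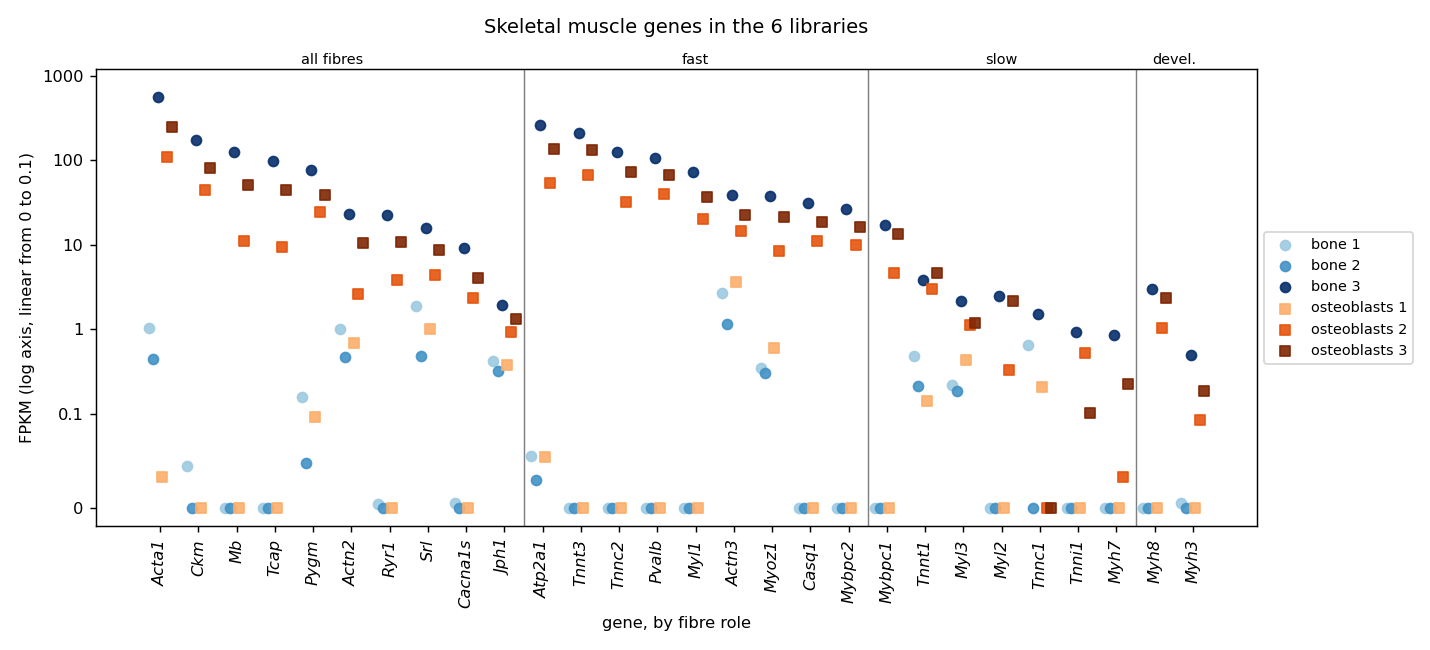
FPKM of the 28 genes (vertical axis, logarithmic above 0.1 and linear below) in each of the 6 libraries, with circles for bone and squares for osteoblasts, ordered by fibre role. Bone replicate 3 and osteoblasts replicates 2 and 3 lie above the other 3 libraries for 27 of the 28 genes, and *Tnnc1* is the exception.

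To show the DNA in front of genes of this list, 3 of which shared the high libraries and 1 of which, *Tnnc1*, did not, the 250 bases before the start of 4 genes are printed from RefSeq (GRCm38.p6). They are the 2 of the 28 genes with the highest mean FPKM, *Acta1* and *Atp2a1*, and the troponin C genes of fast and slow fibres, *Tnnc2* and *Tnnc1*. Each is written 5′ to 3′ on the strand of its gene, and capitals mark the E-box, CANNTG, the recognition letters of myogenic basic helix-loop-helix factors, and the CArG box, the site of serum response factor.

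Acta1, chr8:123894776-123895025, minus strand: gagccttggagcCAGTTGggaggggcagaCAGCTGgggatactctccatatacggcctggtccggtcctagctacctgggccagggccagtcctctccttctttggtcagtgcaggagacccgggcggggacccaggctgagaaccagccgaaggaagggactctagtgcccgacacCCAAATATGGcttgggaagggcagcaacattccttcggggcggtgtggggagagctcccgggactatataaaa

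Atp2a1, chr7:126463074-126463323, minus strand: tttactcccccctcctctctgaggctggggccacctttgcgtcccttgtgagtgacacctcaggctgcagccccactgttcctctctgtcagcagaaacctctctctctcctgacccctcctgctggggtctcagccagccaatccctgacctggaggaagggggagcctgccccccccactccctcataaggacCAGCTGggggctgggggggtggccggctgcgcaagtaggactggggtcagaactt

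Tnnc2, chr2:164779735-164779984, minus strand: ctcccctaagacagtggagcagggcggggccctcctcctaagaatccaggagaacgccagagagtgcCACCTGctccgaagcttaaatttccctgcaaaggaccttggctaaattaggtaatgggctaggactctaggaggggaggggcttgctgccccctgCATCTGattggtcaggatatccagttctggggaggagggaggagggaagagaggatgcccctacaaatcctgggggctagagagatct

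Tnnc1, chr14:31208062-31208311, plus strand: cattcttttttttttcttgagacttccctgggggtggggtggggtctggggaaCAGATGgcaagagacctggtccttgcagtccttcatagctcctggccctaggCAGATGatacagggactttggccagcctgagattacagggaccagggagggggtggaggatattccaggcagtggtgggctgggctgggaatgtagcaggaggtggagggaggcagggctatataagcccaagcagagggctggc

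The window of *Acta1* held 2 E-boxes and 1 CArG box, which did not overlap. *Atp2a1* held 1 E-box, and *Tnnc2* and *Tnnc1* held 2 each. RefSeq gave 34 such windows for 28 of the 36 listed genes, and both strands were searched. These are not the same 28 as the genes with a value. They include *Myh1*, *Myh2*, *Myh4*, *Mylpf*, *Ttn* and *Eno3*, which have no named feature, and lack *Tnnt3*, *Actn3*, *Tcap*, *Myoz1*, *Srl* and *Jph1*. An E-box stood in 30 of the 34 (88.2%), against 66.2% of the 32851 windows in the whole table. A CArG box stood in 3 windows, those of *Acta1*, *Myh4* and *Myl3*, or 8.82% against 1.47% of all windows. The MEF2 site was found in 1 window, that of *Ttn* (2.94% against 0.508%). These matches describe letters in a short window and no binding was measured.

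Over the whole list, the lowest value among bone replicate 3 and osteoblasts replicates 2 and 3 exceeded the highest value in the other 3 libraries for 27 of 28 genes. The same held for 38.4% of the 12112 genes whose mean FPKM reached 1, and for 21 of the 21 listed genes that reached it. Listed genes at or near 0 elsewhere reached that mean through these 3 libraries. The order of bone replicate 3 above osteoblasts replicate 3 above osteoblasts replicate 2 was found in 25 of 28 genes. It was found in 20 of those 21, against 14.4% of the 12112. The exceptions among the 28 were *Tnnt1*, *Tnni1* and *Tnnc1*, all troponin subunits of slow fibres. The 28 genes summed to 2054 FPKM in bone replicate 3, 1050 in osteoblasts replicate 3 and 482 in osteoblasts replicate 2. In bone replicates 1 and 2 and osteoblasts replicate 1 they summed to 9.10, 3.65 and 7.26. As a share of the FPKM of named genes this was 0.235, 0.128 and 0.0560% in the first 3 libraries and at most 0.00186% in the others. In bulk RNA, fewer fibres and less RNA per fibre cannot be told apart.

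The labels were compared by limma on log2(FPKM + 1), fitted over all 12112 genes with Benjamini-Hochberg adjustment. None of the 21 listed genes that reached the filter was called at an adjusted p of 0.05 (0 of 21 at an unadjusted p under 0.05), and limma called 0% of all genes, with 17 genes at an unadjusted p under 0.05. None of the 21 had bone and osteoblasts values that did not overlap, a state found in 0.916% of all genes. The log2 fold change of osteoblasts over bone ran from -0.02 for *Actn2* to 1.81 for *Tnnt3*, with a median of 0.81 over the 21 genes and 0.12 over all genes tested. *Acta1* had a log2 fold change of 1.36 (standard error 2.51, limma adjusted p = 0.999), and *Tnnt3* one of 1.81 (standard error 2.30, limma adjusted p = 0.999). For each of the 21 the difference was smaller than the larger SD within a label. On the linear scale the mean FPKM was higher in bone for 22 of 28 genes, as for *Acta1* with 187 ± 322 (SD, n = 3) in bone and 118 ± 123 (SD, n = 3) in osteoblasts, so the direction depended on the scale.

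Leaving out bone replicate 3 led limma to call 2 of the 21 genes higher in osteoblasts, *Atp2a1* and *Tnnt3*, and leaving out osteoblasts replicate 1 led it to call *Pvalb* and *Tnnt3*. Over all 12112 genes the calls in these fits were 77 and 300. With osteoblasts replicates 2 and 3 both left out, 0 of 21 were called by limma (10 at an unadjusted p under 0.05, against 116 of all 12112 genes) and the median log2 fold change was -1.67, against -0.22 over all genes, the remaining library standing alone for its label.

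Fast and slow fibre genes were compared within each library, where both are read on one scale. The 9 fast genes with a value summed to 919, 529 and 259 FPKM in bone replicate 3 and osteoblasts replicates 3 and 2. The 7 slow genes summed to 29.1, 21.6 and 9.65 FPKM, of which *Mybpc1* alone held 17.4, 13.3 and 4.62. Fast genes therefore made up 44.7, 50.4 and 53.6% of the summed level of the 28 named genes, and slow genes 1.42, 2.06 and 2.00%. The rest was genes used in fibres of both kinds and, at 0.172, 0.243 and 0.232%, the developmental myosins. The fast sum is incomplete, because *Myh1*, *Myh2*, *Myh4*, *Mylpf* and *Tnni2* have no named feature. *Neb*, *Ttn* and *Eno3* are missing from the total for the same reason.

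Troponin holds 3 subunits, each with a fast and a slow gene. For troponin T, *Tnnt3* exceeded the slow *Tnnt1* by 56.2-fold in bone replicate 3, 28.9-fold in osteoblasts replicate 3 and 22.1-fold in osteoblasts replicate 2. *Tnnt1* itself measured 3.79, 4.65 and 3.02 FPKM in these libraries, so its highest value was in osteoblasts replicate 3. It measured 0.484, 0.214 and 0.141 in bone replicates 1 and 2 and osteoblasts replicate 1, where *Tnnt3* was listed at 0. For troponin C, the calcium sensor, the fast *Tnnc2* measured 126, 73.5 and 32.0 FPKM in bone replicate 3 and osteoblasts replicates 3 and 2, and was listed at 0 in the others. The slow *Tnnc1*, which is also the troponin C of the heart, measured 1.5 in bone replicate 3, 0.653 in bone replicate 1 and 0.207 in osteoblasts replicate 1, and was listed at 0 in the other 3. Slow troponin I, *Tnni1*, measured 0.927, 0.102 and 0.524 in bone replicate 3 and osteoblasts replicates 3 and 2 and was listed at 0 elsewhere.

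*Tnnc2* overlaps the feature of *Ube2c*, a gene of dividing cells on the other strand, and the kit does not mark strand. *Ube2c* measured 119, 121 and 123 FPKM in bone replicate 3 and osteoblasts replicates 3 and 2, nearly level where *Tnnc2* fell from 126 to 32.0. In the other 3 libraries *Ube2c* measured 2.94 to 6.53 while *Tnnc2* was listed at 0. *Tnnc1* likewise overlaps another feature, which has no named gene on the other strand.

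The myosin light chains and myosin-binding proteins gave a mixed picture. *Myl1*, an essential light chain of fast fibres, measured 73.6, 36.4 and 20.3 FPKM in bone replicate 3 and osteoblasts replicates 3 and 2, which was 34.2, 30.9 and 18.1 times the slow and cardiac light chain *Myl3*. *Myl2*, the regulatory light chain of slow fibres and the heart, measured 2.46, 2.15 and 0.334. *Mybpc2*, the myosin-binding protein C of fast fibres, measured 26.4, 16.2 and 10.0 FPKM. Its slow relative *Mybpc1* measured 17.4, 13.3 and 4.62, a fast share of only 60.2, 54.9 and 68.5%. Against fast shares of 94.8 to 98.3% for troponin T and the essential light chains, myosin-binding protein C was the pair in which the slow form came closest to the fast one.

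Among the myosin heavy chains, *Myh7*, the slow and cardiac form, reached 0.854 FPKM in bone replicate 3, 0.228 in osteoblasts replicate 3 and 0.0322 in osteoblasts replicate 2. The developmental forms were also low. *Myh3*, the embryonic heavy chain, measured 0.50, 0.186 and 0.0930, and *Myh8*, the perinatal one, measured 3.04, 2.36 and 1.03. The adult fast forms *Myh1*, *Myh2* and *Myh4* lie side by side on chromosome 11 and had no named feature. A feature with no name on their strand, chr11:67164830-67371586, covers these 3 genes together with *Myh8* and *Myh13* and cannot be divided among them. It measured 286, 187 and 83.3 FPKM in the same libraries, 0.00504 in bone replicate 1, and was listed at 0 in bone replicate 2 and osteoblasts replicate 1.

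**Figure D2:**
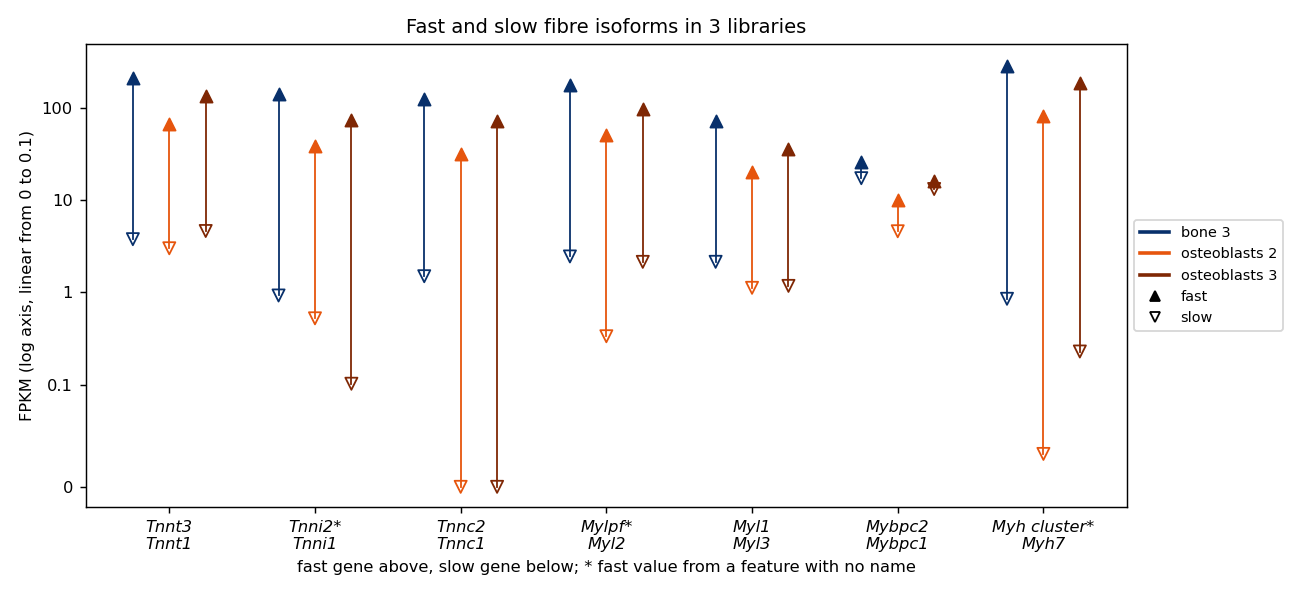
FPKM of fast (filled triangles) and slow (open triangles) genes of 7 pairs in bone replicate 3 and osteoblasts replicates 2 and 3, on an axis that is logarithmic above 0.1. Fast genes lie above slow ones in each pair, and *Mybpc2* lies closest to its slow partner; an asterisk marks a fast value taken from a feature with no name.

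Features with no name also cover the other genes missing from the named set, by their RefSeq positions on the same build. Over *Mylpf*, the fast regulatory light chain, the feature measured 179, 97.7 and 51.7 FPKM in bone replicate 3 and osteoblasts replicates 3 and 2, and it also overlaps *Septin1* and *Tbc1d10b*. Over *Tnni2*, fast troponin I, it measured 145, 74.7 and 38.9, or 156 times *Tnni1* in bone replicate 3 and 74.3 times in osteoblasts replicate 2. The giant proteins were covered too, with 97.1, 63.3 and 18.2 FPKM over *Ttn*, the titin spring of the sarcomere, and 22.2, 14.1 and 4.94 over *Neb*, the nebulin ruler of the thin filament. Over *Eno3*, the muscle enolase, the feature measured 113, 57.5 and 29.7, and it was not near 0 in bone replicate 1 (6.31), bone replicate 2 (2.33) and osteoblasts replicate 1 (2.32). That feature overlaps *Pfn1* on the other strand, which measured 128 to 442 FPKM. These positions are a match of coordinates and not of names.

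The Z-disc anchors the thin filaments of neighbouring sarcomeres. *Actn2*, an alpha-actinin of all fibres, measured 23.4, 10.5 and 2.59 FPKM in bone replicate 3 and osteoblasts replicates 3 and 2, and *Actn3*, the alpha-actinin of fast fibres, measured 39.3, 22.7 and 14.8. *Tcap*, which caps titin at the Z-disc, measured 98.8, 44.4 and 9.31, and was listed at 0 in the other libraries. *Myoz1*, a calcineurin-binding Z-disc protein of fast fibres, measured 37.6, 21.4 and 8.48. *Actn3* was the highest of the 28 in the low libraries, at 2.73 and 1.15 FPKM in bone replicates 1 and 2 and 3.62 in osteoblasts replicate 1.

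Calcium genes had the same order. *Ryr1*, the release channel of the sarcoplasmic reticulum, measured 22.5, 10.9 and 3.89 FPKM in bone replicate 3 and osteoblasts replicates 3 and 2. *Cacna1s*, the voltage sensor that opens it, measured 9.22, 4.04 and 2.37. *Casq1*, which stores calcium in the reticulum, measured 31.0, 18.8 and 11.2. *Pvalb*, a soluble calcium buffer of fast fibres, measured 107, 67.1 and 40.3 and was listed at 0 in bone replicates 1 and 2 and osteoblasts replicate 1. *Srl*, a calcium-binding protein of the reticulum, spanned a narrower range, with 15.8, 8.77 and 4.42 against 1.91, 0.486 and 1.02. *Jph1*, which ties the reticulum to the surface membrane, measured 1.96, 1.34 and 0.926 against 0.421, 0.321 and 0.378.

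Of the energy genes, *Pygm*, the glycogen phosphorylase of muscle, measured 76.8, 38.9 and 24.4 FPKM in bone replicate 3 and osteoblasts replicates 3 and 2, against 0.158, 0.0481 and 0.0969 in bone replicates 1 and 2 and osteoblasts replicate 1. *Mb*, the oxygen-binding myoglobin of oxidative fibres, measured 124, 51.7 and 11.2 and was listed at 0 in the other 3. Of the 28 genes, 13 were listed at 0 in each of the 3 libraries with little *Hbb-bt*, while 5 (*Actn2*, *Actn3*, *Myoz1*, *Srl* and *Jph1*) were above the limit of 3 read pairs in each of those libraries.

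The genes did not change by one factor between libraries. From bone replicate 3 to osteoblasts replicate 2 the FPKM differed by a median of 3.77-fold over 27 genes (*Tnnc1* was listed at 0), against 0.942 over 12068 genes. *Mb*, *Tcap* and *Actn2* differed most among the 21 genes tested, by 11.1, 10.6 and 9.03-fold, and *Mybpc2*, *Pvalb* and *Actn3* by 2.63, 2.65 and 2.66-fold. From bone replicate 3 to osteoblasts replicate 3 the spread was smaller, with a median of 1.83-fold and, among those 21, a range of 0.815 for *Tnnt1* to 2.40 for *Mb*. Relative to *Ckm* in the same library, which does not depend on scaling, *Mb* stood at 72.0% in bone replicate 3, 64.1% in osteoblasts replicate 3 and 24.7% in osteoblasts replicate 2. *Pvalb* stood at 61.8, 83.2 and 89.3% of *Ckm*, the reverse order. Each is a single library and these ratios have no replicate check.

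**Figure D3:**
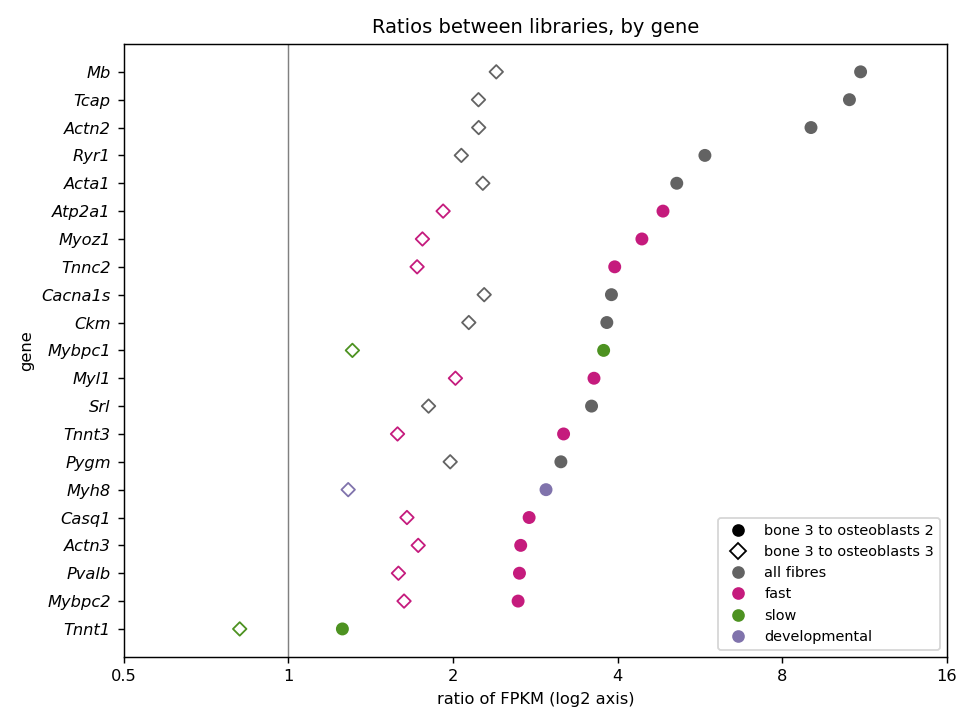
Ratio of FPKM in bone replicate 3 to that in osteoblasts replicate 2 (filled circles) and osteoblasts replicate 3 (open diamonds) for the 21 genes whose mean FPKM reached 1, on a log2 axis and coloured by fibre role. Ratios to osteoblasts replicate 2 run from 1.26 for *Tnnt1* to 11.1 for *Mb*, and the 9 fast genes lie between 2.63 and 4.84.

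Lists of further muscle genes were read in the same way. Of 34 Z-disc, M-band and thin-filament genes 30 were named, of which 21 were higher in each of the 3 libraries rich in *Hbb-bt* than in any other library. The counts were 11 of 22 named triad and excitability genes, 14 of 20 energy genes and 5 of 10 sarcolemma genes, of which 3 were lower instead. Over all genes tested the share was 38.4%, which the triad and sarcolemma counts lie near. The share of all genes that were lower instead was not computed, for this or any later list. limma called 0 genes in any of these lists, in which 20, 8, 17 and 5 genes were tested, with median log2 fold changes of 0.11, -0.05, 0.14 and -0.53. The most abundant were genes that other cells use too, such as *Tpm1*, a tropomyosin, at 297 FPKM in bone replicate 3 and 95.6 to 233 elsewhere, and *Aldoa*, a glycolytic aldolase, at 454 and 128 to 367. Of the 82 named genes in the 4 lists, 64 had the order of bone replicate 3 above osteoblasts replicate 3 above osteoblasts replicate 2. Over all genes tested the share with this order was 14.4%, but only 50 of the 82 were among the genes tested. The 38.4% above comes from the same set of genes tested. *Des*, the desmin filament of muscle, measured 61.0, 24.9 and 10.4 FPKM in bone replicate 3 and osteoblasts replicates 3 and 2. *Ckmt2*, the mitochondrial creatine kinase of muscle, measured 27.0, 10.9 and 3.52. *Tmem38a*, a cation channel of the reticulum, measured 20.4, 11.9 and 5.78, and *Sgca*, a sarcoglycan of the fibre membrane, measured 4.08, 2.37 and 1.82.

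A few of these genes were much higher in bone replicate 3 than in both osteoblasts libraries. *Xirp1*, an actin-binding protein of muscle, measured 13.3 FPKM there against 0.682 and 0.651 in osteoblasts replicates 3 and 2. *Klhl40*, which stabilises thin-filament proteins, measured 17.5 against 1.64 and 1.35. *Pdlim3*, a Z-disc protein, measured 24.4 against 4.30 and 3.69. They were chosen after their values were seen, as the 3 with the highest ratio to osteoblasts replicate 3 among genes of these lists whose mean FPKM reached 1.

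Markers of other tissues were set beside these values. The 9 named cardiac genes summed to 6.31, 3.75 and 3.40 FPKM in bone replicate 3 and osteoblasts replicates 3 and 2, and to 0.193 to 0.988 in the rest. *Myl7*, which marks the atrium, was listed at 0 in each library, and *Nppa*, the atrial peptide, only in bone replicate 3 above 0, at 0.154. *Actc1* measured 3.68, 1.16 and 0.949 in bone replicate 3 and osteoblasts replicates 3 and 2 and was listed at 0 elsewhere. *Mybpc3* measured 1.11, 1.12 and 1.17 there and at most 0.205 elsewhere. Of the 9, 4 were higher in each of bone replicate 3 and osteoblasts replicates 2 and 3 than in any other library. None was lower, and none of the 9 reached a mean FPKM of 1. Over all genes tested, 38.4% were higher in this way. The share that was lower was not computed. Of the 8 named smooth muscle genes, 6 were lower in each of these 3 libraries than in any other and 1, *Smtn*, was higher. They summed to 48.0, 34.2 and 29.8 FPKM, against 589, 217 and 248 in bone replicates 1 and 2 and osteoblasts replicate 1. *Acta2*, the smooth muscle actin, measured 351, 136 and 144 in those last 3 libraries and 6.79 to 11.8 in the others. Tendon and fascia genes summed to 247, 137 and 195 FPKM in bone replicate 3 and osteoblasts replicates 3 and 2, against 44.2 to 89.9. *Comp*, a cartilage and tendon matrix protein, made up most of these sums, at 189, 107 and 158 against 8.63 to 27.1, and was the 1 of 8 genes that was higher in each of the 3, while 2 were lower. *Tnmd*, a defining tendon gene, was at most 0.501, and *Kera* at most 0.116. Other genes of the list were not near 0 in any library, with *Fmod* at 18.1 to 44.5, *Thbs4* at 4.20 to 19.4 and *Scx* at 1.17 to 6.70.

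Most blood genes lacked the order of the muscle genes, as did most genes tested. The 6 named erythroid genes summed to 36500, 50390 and 35890 FPKM in bone replicate 3 and osteoblasts replicates 3 and 2, and to at most 7.29 in the others. The 8 named neutrophil genes summed to 14920, 18090 and 16430, and to at most 6.25. *Hbb-bt* in bone replicate 3 was 0.716 times its level in osteoblasts replicate 3, while the muscle genes had a median ratio of 1.83. The order of bone replicate 3, osteoblasts replicate 3 and osteoblasts replicate 2 was shown by 0 of 6 erythroid and 1 of 8 neutrophil genes. These counts lie near the 14.4% of all genes tested that showed it. The 10 named bone cell genes summed to 3207 to 5176 FPKM per library, though *Fgf23* was listed at 0 in 3 of the 6. Of these 10, 2 were higher in each of bone replicate 3 and osteoblasts replicates 2 and 3 than in any other library. This compares with 38.4% of all genes tested, and 3 of the 10 were lower instead. *Bglap2* measured 1641 to 1959 in these libraries against 264 to 513 in the rest, and *Ibsp* 43.1 to 91.3 against 986 to 1278. The osteocyte gene *Sost* measured 18.8, 22.7 and 15.8 in bone replicate 3 and osteoblasts replicates 2 and 3 and at most 0.198 elsewhere. *Dmp1*, of the same list, went the other way, with 24.25, 22.47 and 22.85 in those libraries. It measured 103.9, 50.04 and 126.6 in bone replicates 1 and 2 and osteoblasts replicate 1. *Phex* measured 4.61 to 8.19 over all libraries. The part of other tissues in the muscle signal was not tested.

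**Figure D4:**
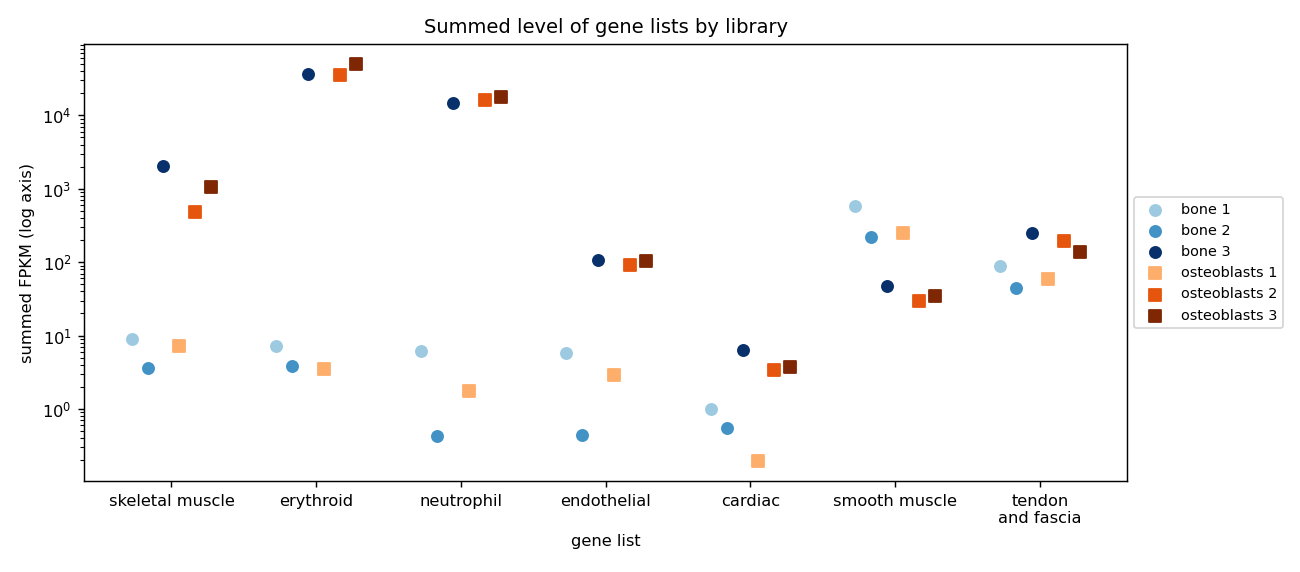
Summed FPKM (logarithmic axis) of 7 gene lists in each library, with circles for bone and squares for osteoblasts. Skeletal muscle, erythroid, neutrophil and endothelial lists are high in bone replicate 3 and osteoblasts replicates 2 and 3, smooth muscle is low there, and the skeletal muscle sum runs from 482 in osteoblasts replicate 2 to 2054 in bone replicate 3.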

How the data were processed

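RNA-seq of 3 bone and 3 osteoblasts libraries was used, grouped by the deposited labels. Paired-end reads of 75 bp were mapped by the authors with HISAT2 2.0.5 (GRCm38), who estimated features with StringTie 1.3.3, and their processing notes also list SAMtools 1.7. The annotation release is not given in the sources used here. The authors deposited FPKM per feature, which are scaled to all aligned reads, the same values rescaled as TPM, and the coverage, a mean read depth per base. The files hold no counts, so depth was inferred from the modal value of coverage over FPKM, and no interval can be given for a single value. The TruSeq kit named in the methods does not mark strand.

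Features with one name were summed. Genes whose mean FPKM reached 1 were fitted with limma 3.58.1 in R 4.3.3 (trend, log2(FPKM + 1)), two-sided, after a test on simulated data. P-values measure only the spread between these libraries. Motifs, lists and plots used Python 3.11.15, pandas 2.3.3, numpy 2.4.6 and matplotlib 3.10.9. The genes, lists and tests were chosen with earlier results of these data known. Named genes were drawn from the 36 listed names, the 3 highest genes of each further list, the 10 genes most correlated with the muscle genes, and *Hbb-bt*. *Des*, *Ckmt2*, *Sgca*, *Myl7*, *Nppa*, *Tnmd*, *Kera*, *Scx*, *Smtn*, *Fgf23*, *Sost*, *Dmp1*, *Phex*, *Myod1*, *Myf6*, *Pax7*, *Cdh15*, *Xirp1*, *Klhl40*, *Pdlim3* and genes overlapping a listed gene fall outside that rule and were chosen after their values were seen. Alternatives were the pseudocount, the filter, TPM, 3 scalings, no trend, the replicate block and leaving out libraries; 2 sets of libraries left out together were added after seeing the data.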

Additional observations from a re-analysis of the deposited data

Results flagged for a closer look

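The following values come from features with no name, which the comparisons of named genes do not use, and were picked out because they exceed the limit of 3 read pairs in bone replicate 3. In that library the feature on the plus strand over *Myh2*, *Myh1*, *Myh4*, *Myh8* and *Myh13* measured 285.9 FPKM. A feature on the minus strand at chr11:67189377-67298696, opposite *Myh1*, *Myh2*, *Myh4* and *Myh8*, measured 14.36 FPKM in bone replicate 3, was listed at 0.00168 in osteoblasts replicate 3 and was listed at 0 in the other 4 libraries. The features over *Mylpf*, *Tnni2*, *Neb*, *Ttn* and *Eno3* measured 179.0, 144.6, 22.24, 97.06 and 113.3 FPKM. No control samples exist for these features, and groups of 3 libraries were not searched for a library far from the others.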

How the results depend on the processing

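limma called 0 of the listed genes tested and 0 of all genes under each other pseudocount, filter, unit and scaling and without a trend (6 to 173 of all genes at an unadjusted p under 0.05). The listed genes tested numbered 28 with no filter, 18 at a mean FPKM of at least 5, 20 under TPM and 20 scaled to named genes. In the other settings they numbered 21. With the replicate block limma called 49 genes (46 higher and 3 lower) and 0 of the 21. Deviations of same-numbered libraries correlated at 0.841, -0.747 and 0.830 across genes. Bone replicate 2 with osteoblasts replicate 1, both low in *Hbb-bt*, gave 0.803. Bone replicate 3 with osteoblasts replicate 2, both high in it, gave 0.831. Each pair of a high and a low library was negative, from -0.907 to -0.722. The sign thus followed *Hbb-bt* for equal and unequal numbers alike, so these correlations do not decide which libraries share a mouse. Leaving out 1 library gave 0 to 300 calls over all genes and 0 to 2 among the 21, with 77 calls without bone replicate 3 and 300 without osteoblasts replicate 1; fewer libraries remained in these fits. Log2 fold changes changed sign when 1 library was left out, with ranges of -0.15 to 4.14 for *Acta1*, -0.77 to 1.25 for *Actn2*, -0.03 to 2.08 for *Actn3*, -0.16 to 0.92 for *Myh8*, -0.52 to 3.11 for *Mb*, -0.37 to 1.95 for *Ryr1*, -0.32 to 1.36 for *Cacna1s*, -0.16 to 2.11 for *Mybpc1*, -0.066 to 2.39 for *Myoz1*, -0.53 to 2.96 for *Tcap* and -0.56 to 1.19 for *Srl*. Other scales changed the sign of *Actn2* (0.19 with a pseudocount of 0.1 and 0.24 with 0.01), *Myh8* (-0.05) and *Cacna1s* (-0.021), the last 2 under quantile normalization. Scaling moved the median log2 fold change of all genes from 0.12 to between -0.04 and 0.05. Without osteoblasts replicates 2 and 3 the log2 fold changes of all 21 genes were negative, and 20 had changed sign, namely -3.52 for *Acta1*, -0.57 for *Actn3*, -0.67 for *Myh8*, -2.07 for *Myl1*, -0.85 for *Tnnt1*, -2.58 for *Tnnt3*, -2.33 for *Tnnc2*, -2.50 for *Ckm*, -2.32 for *Mb*, -2.25 for *Pvalb*, -2.65 for *Atp2a1*, -1.52 for *Ryr1*, -1.67 for *Casq1*, -1.12 for *Cacna1s*, -1.40 for *Mybpc1*, -1.59 for *Mybpc2*, -1.35 for *Myoz1*, -2.21 for *Tcap*, -2.05 for *Pygm* and -1.05 for *Srl*, while *Actn2* (-1.31) had been negative before. Leaving out bone replicate 2 and osteoblasts replicate 1 changed no sign and called 0 genes. Fast shares of the named pairs were the same under TPM and the highest feature. Scaled to named genes, the summed level moved from 3.65 to 6.26 in bone replicate 2 and from 7.26 to 11.3 in osteoblasts replicate 1, above the 9.32 of bone replicate 1, and in bone replicate 3 from 2054 to 1430; the 3 high libraries kept their order under each scaling. The cause of these changes was not tested. Depth limits genes under about 0.2 FPKM, and 3 libraries a label limit each comparison.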

Other observations

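Myogenic and satellite cell genes summed to 31.9, 30.0 and 24.85 FPKM in bone replicate 3 and osteoblasts replicates 3 and 2, below the 28 genes. In bone replicates 1 and 2 and osteoblasts replicate 1 they summed to 72.2, 37.7 and 44.4, above the 28 genes. *Mef2a*, the highest of them, measured 40.5, 21.6 and 21.1 in those last libraries and 6.22 to 9.38 in the others. *Megf10* measured 5.63 to 9.38 there and 1.04 to 1.31 in the others, and *Mef2c* 6.52 to 11.35 over all libraries. Of 14 named myogenic and satellite cell genes, 3 were higher in each of bone replicate 3 and osteoblasts replicates 2 and 3 than in any other library and 3 were lower. Over all genes tested, which include 5 of the 14, 38.4% were higher. *Myod1*, a master regulator of muscle fate, measured 0.709 FPKM in bone replicate 3 and 0.524 and 0.151 in osteoblasts replicates 3 and 2, and *Myf6*, which adult fibres express, measured 1.90, 0.721 and a listed 0. *Pax7*, which marks satellite cells, was at most 0.0664. *Cdh15*, a cadherin of muscle, measured 5.20, 3.50 and 3.09, against at most 0.0230 in bone replicates 1 and 2 and osteoblasts replicate 1.

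The 10 genes outside the lists whose log2 levels followed the mean of the 28 genes most closely over the 6 libraries had a Pearson correlation of 0.997 to 0.999. They were *Gli1*, *Ddb2*, *Igkv5-48*, *Gm44365*, *Rpl3l*, *Zg16*, *Il17rb*, *Scn4b*, *AC122507.1* and *Mst1*. The libraries fall into separate clusters of 3, and 17.2% of all genes tested had a correlation above 0.9, so this is a description only. *Rpl3l*, a ribosomal protein gene of striated muscle, measured 7.17, 4.30 and 2.18 FPKM in bone replicate 3 and osteoblasts replicates 3 and 2.

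Endothelial genes summed to 106, 105 and 91.0 FPKM in bone replicate 3 and osteoblasts replicates 3 and 2, and to 0.447 to 5.76 in the other libraries. Fat genes summed to 30.7 FPKM in bone replicate 2 and 98.2 to 293 in the rest, and nerve and Schwann cell genes to 25.2 to 52.5.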
